A study of Mus musculus with 8 samples.

Results

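Wide unmethylated valleys of the mouse genome shared by naive CD4+ T lymphocytes and resting B lymphocytes are described here. A valley was a run of at least 5 adjoining 1 kb tiles on the 19 autosomes, and it was chosen by its measured methylation: each tile had at least 3 CpGs covered by 5 or more reads in all 4 deposited files, and at most 15% of its reads were methylated in every file. The rule found 280 valleys among 16409 runs of such tiles of any length, and among 1950708 tiles with enough CpGs to be judged. Their low levels and their widths are what selected them and are given as a description.

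DNA was taken from the spleens of male and female C57BL/6J mice 6 to 8 weeks old and treated with bisulfite, which leaves 5-methylcytosine and 5-hydroxymethylcytosine to be read as C and turns other cytosines to T. The 8 samples fell into 4 groups of 2: CD43- B cells of females, CD4+CD62L+ T cells of females, and the same cells of males. The T cells had been sorted as CD62Lhi, CD44lo and CD25-, and each biological replicate was a pool of several mice according to the study's methods. The labels of the 2 samples of a group name 1 and the same file, and whether it merges both libraries or holds 1 of them is not given in the sources used here, so each group gives 1 value and the female and male files serve as the replicate of each cell type; strain and age were common to all groups, and neither a treatment nor an engineered allele was involved. The files held between 278275973 and 339923001 autosomal reads over CpGs, or 14.6 to 17.7 reads per CpG, with a mean level between 79.5% and 80.7%. Around the starts of 3 B cell genes (Ms4a1, Cd79a and Cd79b) the level was 8.19% to 17.0% in B cells and 35.9% to 93.6% in T cells. Around the starts of 6 T cell genes (Cd3d, Cd3e, Cd3g, Cd4, Cd5 and Thy1) it was 1.87% to 20% in T cells and 14.8% to 95.5% in B cells, and all 9 genes were lower in the cells they mark in both sexes.

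Most CpGs of mammalian DNA carry a methyl group, and the main exceptions are CpG islands at gene starts. Unmethylated stretches much longer than an island, known as DNA methylation valleys or canyons, are found at many tissues' developmental regulators, which Polycomb proteins commonly hold silent in cells that do not use them. In blood cells such stretches are also known at transcription factors of the lineage itself, and their borders can move with loss of the enzymes that write or remove methylation.

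The 5 windows of 300 bases below show the kinds of sequence the results turn on. Each is the stretch with the most measured CpGs in its valley or tile that touches no untranslated exon, is given on the plus strand of GRCm38/mm10, and has its CpG sites in capitals. The first is the CpG-rich part of the widest valley, in intergenic DNA upstream of Ebf3 at chr7:137322581-137322880. The second lies in an intron of Bcl11a at chr11:24078991-24079290, inside the widest valley of a lymphocyte transcription factor. The last 3 border valleys and differed between the cells. They are chr3:131115491-131115790, which overlaps a Lef1 exon, chr12:107999541-107999840 in an intron of Bcl11b, and chr3:131102241-131102540, intergenic and upstream of Lef1.
Ebf3 valley: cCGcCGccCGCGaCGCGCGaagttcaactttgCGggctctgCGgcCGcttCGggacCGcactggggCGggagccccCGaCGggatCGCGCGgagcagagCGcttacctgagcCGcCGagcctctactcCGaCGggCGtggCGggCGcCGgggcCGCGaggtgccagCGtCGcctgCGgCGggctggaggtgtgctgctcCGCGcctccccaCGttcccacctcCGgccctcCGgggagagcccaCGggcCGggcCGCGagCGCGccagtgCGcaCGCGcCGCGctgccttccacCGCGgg
Bcl11a valley: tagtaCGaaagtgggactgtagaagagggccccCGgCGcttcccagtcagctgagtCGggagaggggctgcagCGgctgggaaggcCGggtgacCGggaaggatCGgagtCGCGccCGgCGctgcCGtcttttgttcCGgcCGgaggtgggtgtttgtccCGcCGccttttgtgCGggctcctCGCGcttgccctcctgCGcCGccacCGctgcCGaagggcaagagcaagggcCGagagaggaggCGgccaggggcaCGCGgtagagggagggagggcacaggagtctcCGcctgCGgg
Lef1 body flank: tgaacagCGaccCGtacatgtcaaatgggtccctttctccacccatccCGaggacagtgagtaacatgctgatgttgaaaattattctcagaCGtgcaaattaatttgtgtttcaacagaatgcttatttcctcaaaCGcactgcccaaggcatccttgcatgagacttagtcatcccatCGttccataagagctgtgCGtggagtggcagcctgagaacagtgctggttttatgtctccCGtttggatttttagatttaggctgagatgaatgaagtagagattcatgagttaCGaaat
Bcl11b body flank: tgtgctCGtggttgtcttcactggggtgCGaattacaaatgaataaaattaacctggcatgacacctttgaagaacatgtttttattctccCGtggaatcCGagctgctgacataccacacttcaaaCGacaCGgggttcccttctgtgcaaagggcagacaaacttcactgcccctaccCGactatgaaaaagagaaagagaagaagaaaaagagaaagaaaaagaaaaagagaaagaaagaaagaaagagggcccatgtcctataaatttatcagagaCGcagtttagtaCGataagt
Lef1 upstream flank: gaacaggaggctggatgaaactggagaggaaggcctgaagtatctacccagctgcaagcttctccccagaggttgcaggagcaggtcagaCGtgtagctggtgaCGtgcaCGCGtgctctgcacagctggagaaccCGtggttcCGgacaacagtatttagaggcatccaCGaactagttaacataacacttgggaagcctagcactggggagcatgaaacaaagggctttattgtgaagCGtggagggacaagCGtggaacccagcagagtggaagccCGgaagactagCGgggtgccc

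The Ebf3 window holds 51 CpGs and its level was 4.045% in female B, 3.53% in female T, 1.83% in male B and 2.87% in male T cells. The 30 CpGs of the Bcl11a window were methylated in 0.0%, 0.230%, 0.0% and 1.10% of reads. Both windows from inside valleys were low in every file. In the Lef1 body window, whose 9 CpGs were each between 85% and 100% in B cells and between 0.0% and 7.14% in T cells, the level was 95% in female B, 0.0% in female T, 94.4% in male B and 0.800% in male T cells. The 9 CpGs of the Bcl11b window gave 77.97%, 1.15%, 80.5% and 0.820%. In the Lef1 upstream window the order of the cells was the opposite, with 11 CpGs at 24.9% in female B, 84.5% in female T, 16.6% in male B and 88.7% in male T cells.

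The valleys covered 1757 kb. They held 6.68% of the 26308 tiles at or below 15% in every file, which were 1.35% of all tiles judged. There were 126 valleys of 5 kb, 64 of 6 kb, 40 of 7 kb and 23 of 8 kb, with a median of 6 kb. Only 18 reached 10 kb. The widest were those of Ebf3 (15 kb), Pou3f2 and Pax3 (13 kb each), Dmrt3 and En1 (12 kb each), Skor1, Nkx2-1 and Tfap2d (11 kb each), and, among those of 10 kb, Barhl2, Osr2 and a stretch within Pax6. All of these genes encode transcriptional regulators of development. Ebf3 and Pou3f2 act in neurons, Pax3 in neural crest and muscle precursors, En1 at the midbrain-hindbrain border, Nkx2-1 in thyroid, lung and forebrain, and Pax6 in the eye. Valleys were found on all 19 autosomes, from 6.88 per 100 Mb on chromosome 3 to 22.9 on chromosome 11.

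Gene starts were common in the valleys, although the rule did not use them. A protein-coding gene began in 208 valleys (74.3%), and 222 such starts lay inside in all, 1.07% of the 20804 autosomal protein-coding genes. A further 50.7% began in unmethylated runs of 1 to 4 tiles. The share of runs with a start was close to that of the valleys in most shorter classes, at 77.3% in runs of 2 tiles, 75.5% in runs of 3 and 73.0% in runs of 4, and was 45.7% in single tiles. Of the 72 valleys with no protein-coding start, 50 overlapped a protein-coding gene, 27 held the start of a noncoding gene, and 10 neither held a start nor overlapped a protein-coding gene.

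Genes of embryonic patterning made up a large share of the starts. Across 5 lists of developmental genes 84 of 312 genes (26.9%) began in a valley, against 0.627% of the 20411 genes on no list. Among homeobox genes outside the Hox clusters, which encode DNA-binding factors that specify organs and cell types, 44 of 114 (38.6%) did, including Dlx1, Dlx2, Dlx5 and Dlx6, Irx1, Irx3, Irx4 and Irx5, and En1 and En2. Of the Pax, Sox, Fox, Gata, Tbx and Zic genes 24 of 62 (38.7%) did, among them Pax2, Pax3, Pax6, Pax7 and Pax9. The Hox clusters, which set position along the body axis, gave 8 of 39 (20.5%), with Hoxc11 in the widest valley at 10 kb. Only 4 of 39 bHLH developmental factors (Bhlhe22, Hes1, Neurod2 and Olig2) and 4 of 58 secreted ligands and inhibitors (Bmp4, Fgf9, Gdf6 and Wnt11) did, while 41 of those 58 began in runs of 1 to 4 tiles. The lists were drawn up with results of these data known.

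Of 15 housekeeping genes, which are active in every cell, none began in a valley and 11 began in a run of 1 to 4 tiles; with 1.07% of all genes in valleys, a list of this size could well hold none. None of 1128 olfactory receptor genes, which are expressed in the nose, began in an unmethylated run of any length. Starts in tiles with too few CpGs to be judged count here as in no run. Of 24 genes for Polycomb and DNA methylation machinery 2 began in a valley, among them Cbx8, a Polycomb reader of methylated histone, in one of 5 kb.

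**Figure D1:**
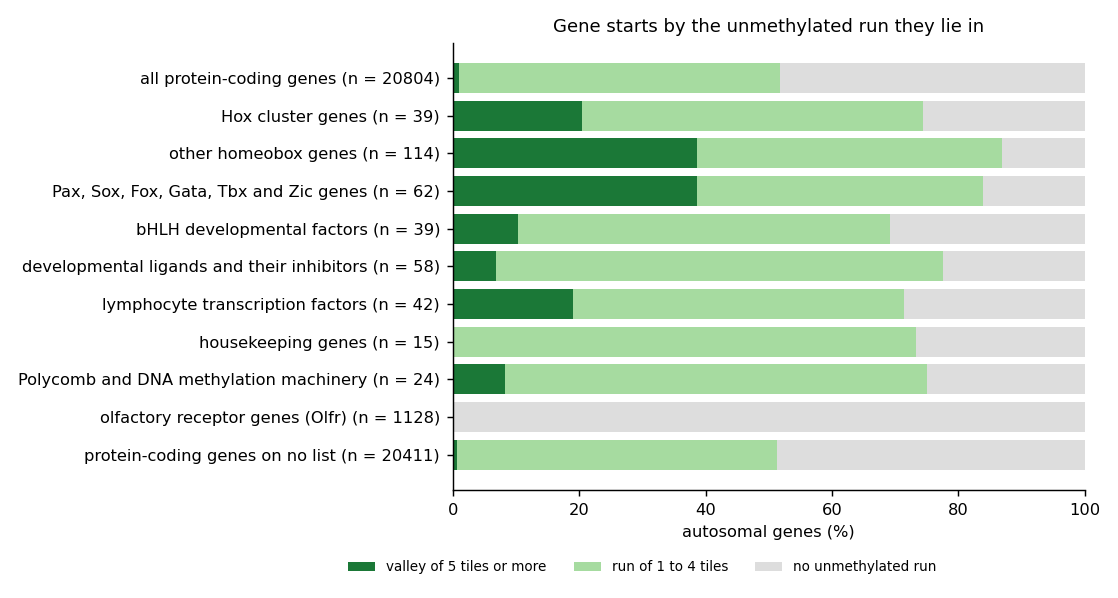
Share of the autosomal genes of each list (x axis, %) whose annotated start lay in a valley of 5 or more tiles (dark green), in an unmethylated run of 1 to 4 tiles (light green) or in no run (grey). Grey includes any starts in tiles that could not be judged. Homeobox genes outside the Hox clusters and the Pax, Sox, Fox, Gata, Tbx and Zic genes reached 38.6% and 38.7% in valleys, where all protein-coding genes reached 1.07%.

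Transcription factors that lymphocytes themselves use also began in valleys, 8 of 42 listed (19.05%): Bcl11a, Bcl11b, Bcl6, Id2, Ikzf1, Ikzf2, Lef1 and Zbtb7b. Bcl11a and Ikzf1 act in early lymphoid development, Bcl11b, Lef1 and Zbtb7b in the T lineage, Bcl6 in germinal centres, and Id2 holds E proteins inactive. A further 22 of the 42 began in runs of 1 to 4 tiles.

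The level inside the valleys ranged from 0.177% to 10.45% over the 4 files pooled, and its median was 4.30% in female B, 4.79% in female T, 4.13% in male B and 4.75% in male T cells. Each valley's level rests on 652 to 16112 reads a file. Over all valleys and files the 95% Wilson interval of a level, which covers counting error only, was at most 3.22 points wide and 1.12 points in the median. By level, 72 valleys were under 2%, 92 from 2% to 5% and 116 at 5% or more. The lowest were at Cnot6l, a subunit of the mRNA deadenylation complex, with 0.177%, at H2-DMa and Brd2, genes of antigen presentation and of chromatin reading, with 0.212%, and at Irf2bp2 with 0.249%. The highest were those overlapping Tbx4 (10.45%), a limb regulator, and Dio3 (9.79%), an enzyme that inactivates thyroid hormone. Hoxc12 (9.05%) and Hmx1 (9.04%) followed.

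Valleys with developmental genes were seldom among the least methylated. Their median was 5.03% over 83 valleys, against 1.33% over the 8 with lymphocyte factors, 2.38% over the 117 with another protein-coding start and 5.91% over the 72 with none. Among the developmental lists Sox4, which lymphocyte precursors also use, was lowest at 0.374%. The median level was 3.45% in female B, 3.58% in female T, 3.05% in male B and 3.60% in male T cells in valleys of 5 kb, and 5.32%, 5.67%, 5.07% and 5.98% in those of 10 kb or more. Between these widths it lay at 4.56% to 4.89% in valleys of 6 to 7 kb and at 4.46% to 5.404% in those of 8 to 9 kb, and in male B cells it was lower in the wider of these 2 classes. Developmental genes were in 15.1%, 33.65%, 56.25% and 61.1% of those width classes, and no valley of 10 kb or more had a level under 2% whereas 45 of the 126 valleys of 5 kb did. The median CpG count was 49.8 per kb in 5 kb valleys and 37.3 per kb in those of 10 kb or more.

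**Figure D2:**
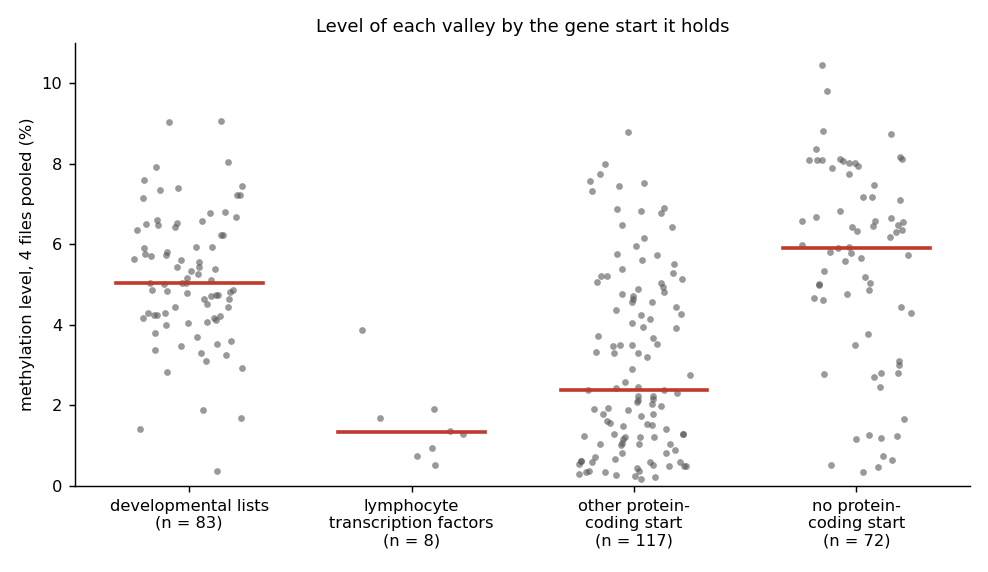
Methylation level of each of the 280 valleys with the 4 files pooled (y axis, % of reads), grouped by the protein-coding start it holds. Points are valleys and red lines are medians, 5.03% for developmental genes and 1.33% for lymphocyte transcription factors, and 2.38% for the other protein-coding starts.

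In the widest valleys the 4 files stood close together. At Ebf3 (chr7:137309001-137324000, 830 CpGs) the level was 5.59% in female B (Wilson interval 5.19% to 6.01%), 5.60% in female T, 5.20% in male B and 6.05% in male T cells. The Pax3 valley (chr1:78192001-78205000) stood at 6.70%, 7.97%, 7.04% and 7.47%. At En1 (chr1:120596001-120608000) the values were 5.90%, 6.60%, 5.58% and 6.78%. B cells were the lower in each sex at all 3, by no more than 1.27 points. Counted by sign alone, the same order held in both sexes in 15 of the 18 valleys of 10 kb or more, the exceptions being Nkx2-1, Evx2 and Foxb1.

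At most of the 8 valleys with the start of a listed lymphocyte factor the order of the cells was the reverse. The Ikzf1 valley (chr11:11685001-11692000) was at 2.75% in female B, 0.903% in female T, 3.10% in male B and 0.391% in male T cells. The Bcl11b valley (chr12:108002001-108007000) was at 5.54%, 2.21%, 5.37% and 2.59%, and that of Zbtb7b (chr3:89390001-89397000) at 2.28%, 0.558%, 1.66% and 0.900%. T cells were lower in both sexes at 6 of the 8, and the exceptions were Id2 and Bcl11a, which was under 0.9% in all 4 files. Valleys without a protein-coding start are not among the 8, such as those within Pax5, described below, and overlapping Lyl1 and Nfix. Both were lower in B cells in each sex. The latter was at 1.54% in female B, 3.54% in female T, 1.26% in male B and 3.28% in male T cells. Of all 72 valleys with no protein-coding start 44 were lower in B cells in both sexes and 10 higher.

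**Figure D3:**
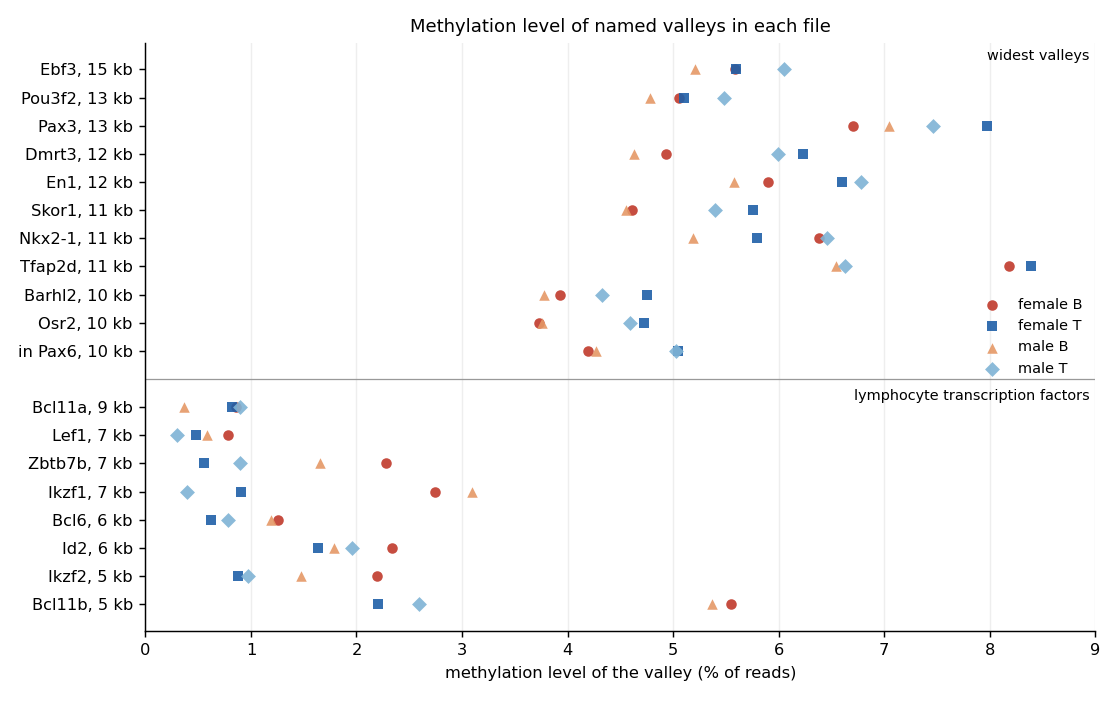
Methylation level (x axis, % of reads) of the 11 widest valleys named and of the 8 valleys with a lymphocyte transcription factor start, in each of the 4 files. Each symbol is 1 file, and the widest valleys lie between 3.73% and 8.39% while the lymphocyte factors lie between 0.304% and 5.54%.

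Over all 280 valleys B cells were below T cells in both sexes in 146 (52.1%) and above in 51, with the order differing between the sexes in 83. The median B minus T difference was -0.192 points in females and -0.448 in males. Counted in the same way, females were above males in both cell types in 101 valleys and below in 42. The median female minus male difference was 0.224 points in B cells and 0.0296 in T cells. Whether the counts between B and T cells reflect cell type or offsets between files was not tested. The share with B cells below T cells in both sexes was 36.6% in runs of 4 tiles and 28.7% in runs of 3. It was 22.8% in runs of 2 and 26.5% in single tiles. Shorter runs pool fewer tiles and reads, so agreement of sign in both sexes is not like for like. Of the valleys with developmental genes 49 of 83 were lower in B cells in both sexes and 4 were higher, whereas of the 8 with lymphocyte factors none was lower and 6 were higher. Valleys with no protein-coding start were lower in 44 of 72 and higher in 10, and those with another protein-coding start lower in 53 of 117 and higher in 31. Reads of mitochondrial DNA, a side measure of incomplete conversion, were methylated in 0.447% of female B, 0.188% of female T, 0.249% of male B and 0.172% of male T cell reads, so they were higher in B cells. That is the opposite of the order in 146 valleys and the same as the order in the 51 where B cells were above in both sexes, 6 of the lymphocyte factors among them. The mitochondrial B minus T difference was 0.2595 points in females and 0.0767 in males, and that of the Lef1 valley was 0.297 and 0.278 points. The part of incomplete conversion in these differences was not tested.

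Levels inside the valleys selected them, so their differences are given without a test. The widest difference over a whole valley was within Pax5, the factor that holds B cell identity. This valley (chr4:44701001-44706000) lies 4487 bp from the nearest protein-coding start, that of Pax5, and holds the start of a noncoding gene. Its level was 1.08% in female B, 5.37% in female T, 1.155% in male B and 5.29% in male T cells. Both B cell files lay below both T cell files, with B minus T at -4.283 points in females and -4.135 in males. In the tile nearest Pax5's start, chr4:44705001-44706000, the levels were 1.70%, 13.0%, 3.57% and 13.65%, and the next tile outward was above 15% in T cells only, at 6.97%, 21.3%, 3.77% and 21.8%.

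The valleys were rich in CpGs, as shorter unmethylated runs were, but were not uniform islands. Per run, the median was 46.5 CpGs per kb with a GC content of 54.9% in valleys, and 45 to 53.7 per kb with 55.5% to 56.2% in runs of 1 to 4 tiles. The median valley tile had 41.0 CpGs per kb, a GC content of 54.3% and an observed to expected CpG ratio of 0.583, where all tiles judged had 8.0 per kb, 42.7% and 0.179. Island-like sequence, with a GC content of at least 50% and a ratio of at least 0.6, made up 40.9% of valley tiles and 0.788% of all tiles. At the other end 261 valley tiles (14.85%) had fewer than 20 CpGs per kb, and the fewest was 3. Repeat-masked bases took a median of 11.6% of a valley tile against 23.1% of all tiles. The Tfap2d valley (chr1:19102001-19113000) was among the sparsest of the wide ones, with 19.1 CpGs per kb, and it was at 8.18%, 8.39%, 6.54% and 6.63%.

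Few single CpGs inside valleys were methylated, which the rule partly fixes because it limits every tile to 15% in every file. Of 76032 CpGs measured inside valleys 145 (0.191%) were methylated at 50% or more in every file, where 83.4% of all autosomal CpGs were, and 29564 (38.9%) had no methylated read in any file, where 4.89% of all did. The 145 lay in 85 valleys, 21 of them in exons and 15 in repeats. The valley of Grk2, a kinase of G protein-coupled receptors, had the most with 6 of its 164 CpGs. Next were one within Bbc3, a pro-apoptotic gene, and that of Wnt11 with 5 each. The 6 at Grk2 all lay in the outermost tile, 75 to 286 bp from the edge. The 5 within Bbc3 lay 243 to 521 bp from it, and those at Wnt11 104 to 2329 bp. Many of the 145 also lay in the outermost tile of their valley.

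Methylation rose over a few kilobases at the edges. The last tile inside had a median of 5.54% in female B, 6.29% in female T, 5.31% in male B and 6.03% in male T cells. The first tile outside was at 27.1%, 27.1%, 26.7% and 26.2%, the second at 55.7%, 52.6%, 53.6% and 52.2%, and the fifth at 77.1%, 74.5%, 74.3% and 73.4%. At 10 kb the medians were 85.3% to 86.0%, and at 20 kb 88.1% to 88.9%. The lower quartile stayed between 14.2% and 16.8% from the first to the fifth outer tile in all 4 files, near the limit. Outer tiles that belong to a neighbouring valley were kept in these edge values, and 18 pairs of valleys lay within 5 kb of each other. At every distance to 20 kb the 4 medians lay within 3.7 points of each other. Over single CpGs in 100 bp bins the mean rose to between 47.1% and 48.2% at 950 bp outside and lay between 33.2% and 38.1% from 1500 to 3000 bp, and what separates the mean from the median was not tested.

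**Figure D4:**
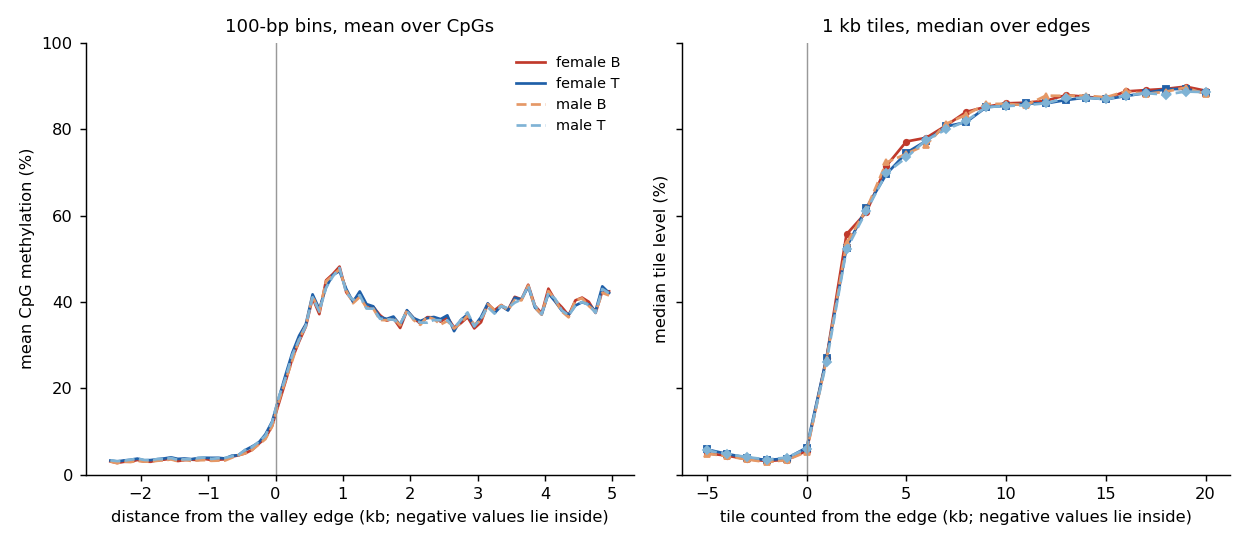
Methylation (y axis, %) against distance from the 560 valley edges in the 4 files, as the mean over CpGs in 100-bp bins (left) and as the median over edges of 1 kb tiles (right). Tile medians rise from 27.1% in the first outer tile to 77.1% in the fifth in female B cells, and the lines of the 4 files overlap.

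What ended a valley differed. Of 560 edges 541 had a measured tile next to them, which was above 15% in all 4 files at 357, in 3 at 46, in 2 at 69 and in 1 at 69. It was at 50% or more in all 4 files at 132. It was above 15% in both B cell files only at 16 edges and in both T cell files only at 23. Valleys also ended close to one another. There were 9 pairs 1 tile apart, at Dlx1 and Dlx2, Pax6, Pax7, Pax2, Wt1, Six3, Otx1, Lhx5 and Uncx. Dlx1 and Dlx2, neighbouring homeobox genes of the forebrain, span 20 kb with a middle tile at 13.6% in female B, 13.0% in female T, 16.7% in male B and 14.5% in male T cells. The tile between the pair at Wt1 was at 40.9%, 50%, 41.0% and 40.5%, far above the 15% limit in every file.

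Each file's own run around a shared valley was then measured, with the same tiles and the same limit. The run had 1 width in all 4 files at 131 valleys. It was wider in T cells in both sexes at 20 and wider in B cells at 27. By 3 kb or more in both sexes it was wider in T cells at 4 valleys and in B cells at 12, which are 10 separate stretches because the 2 valleys at Pax6 lie in a single B cell run and so do the 2 at Cbx8.

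The 4 that were wider in T cells were Bcl11b, Lef1, Ikzf1 and a valley within Cytip, an adaptor protein of lymphocyte adhesion. The Bcl11b run was 5 kb in female B, 16 kb in female T, 6 kb in male B and 16 kb in male T cells. That of Lef1 was 7, 15, 7 and 15 kb, that of Ikzf1 7, 13, 7 and 13 kb, and that of Cytip 6, 10, 6 and 10 kb. In T cells the Ikzf1 run ended at a tile with too few CpGs to be judged. The tile beyond that one was at 84.7% in female B, 6.53% in female T, 78.2% in male B and 6.83% in male T cells. Over the 8 tiles that T cells add at Lef1 the median level was 82.7% in female B, 2.58% in female T, 86.6% in male B and 2.64% in male T cells. Over the 11 at Bcl11b it was 77.0%, 1.23%, 71.2% and 1.16%. Here 10 of 11 tiles at Bcl11b, 7 of 8 at Lef1, 4 of 4 at Cytip and 3 of 6 at Ikzf1 differed by 20 points or more, values that the choice of these valleys by width partly fixes.

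The 12 that were wider in B cells were mostly at developmental genes. Among them were Pou3f3, En2, Neurod2, Hoxc11, Foxa1, Pax6 with 2 valleys and one near Sox1. The others included Cbx8 with 2 and one overlapping Lyl1 and Nfix. At Neurod2, a neuronal bHLH factor, the run was 13 kb in female B, 6 kb in female T, 13 kb in male B and 6 kb in male T cells, and over the 7 added tiles the median level was 6.88%, 8.85%, 9.68% and 13.0%. At Hoxc11 the run was 14, 10, 14 and 10 kb, and its 4 added tiles had medians of 8.82%, 13.98%, 11.1% and 13.96%. Both cell types were low in these added tiles, and apart from the valley overlapping Lyl1 and Nfix the T cell levels there reached at most 20.3%. A difference of 20 points was reached in 1 tile in all of them, next to the valley overlapping Lyl1 and Nfix. These are a haematopoietic bHLH factor and a nuclear factor I gene. That tile was at 3.10% in female B, 27.2% in female T, 0.901% in male B and 30.9% in male T cells.

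**Figure D5:**
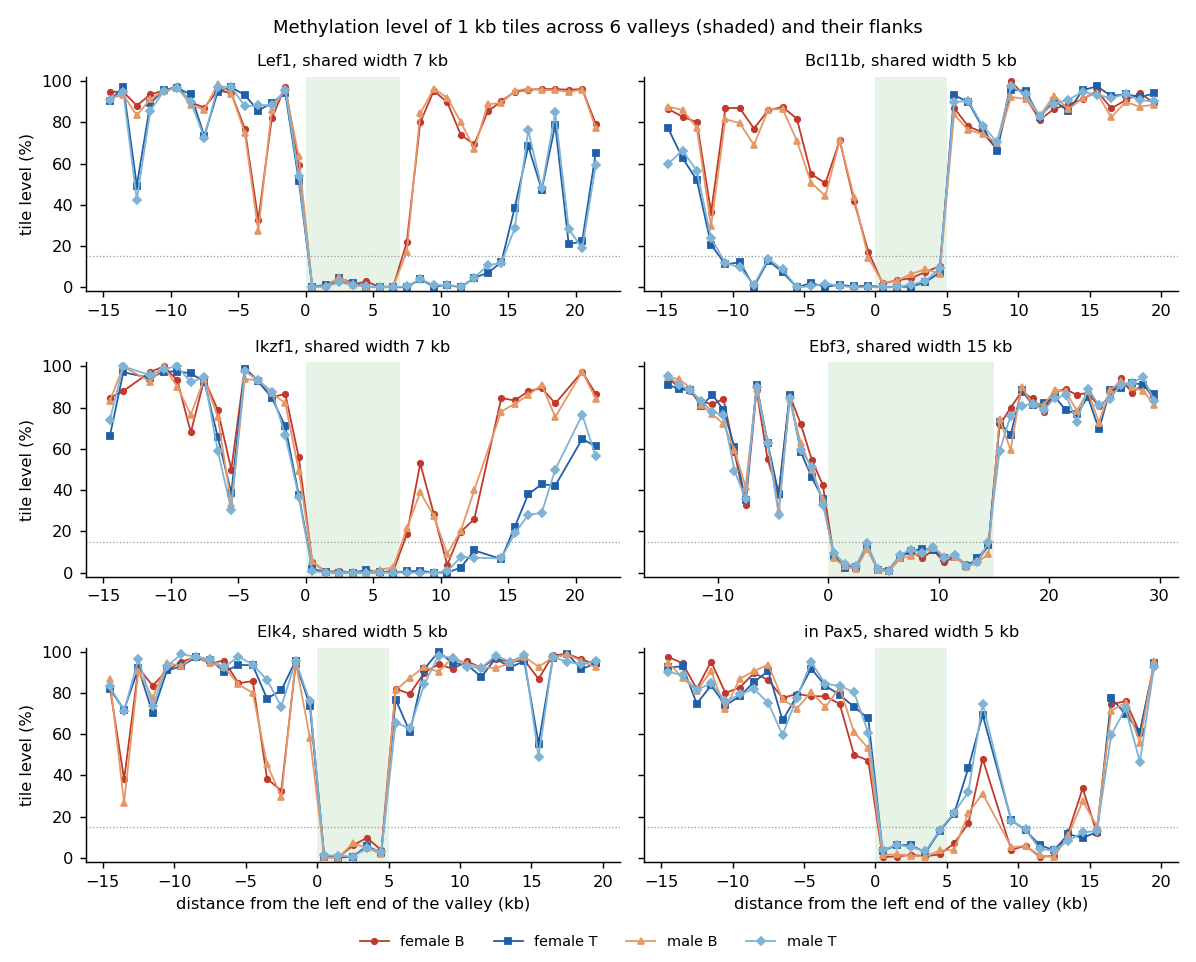
Methylation level of 1 kb tiles (y axis, % of reads) against distance from the left end of 6 valleys (x axis, kb), with the shared valley shaded and the 15% limit dotted. At Lef1, Bcl11b and Ikzf1 the T cell files stay low beyond one end of the shared valley while the B cell files rise, and at Ebf3 the 4 files run together.

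The 5 tiles on each side of every valley were tested between B and T cells in a quasi-binomial model with cell type and sex fitted on all 1950708 tiles, at an adjusted p under 0.05 and a difference of 20 points or more. The first outer tile is by the rule above 15% in at least 1 file or unmeasured. Of 2539 flanking tiles 103 (4.06%) were called, where 2.12% of all tiles were, with 63 higher and 40 lower in B cells. Without the first outer tiles, whose levels ended the valleys, 80 of 2007 (3.99%) were called, 50 higher and 30 lower. Tiles further out can continue a difference that ended the valley, as at Lef1 and Bcl11b. This share is therefore not free of the rule either. The share was 4.32% in the first tile, 5.26% in the second, 4.89% in the third, 2.94% in the fourth and 2.57% in the fifth. The calls lay beside 54 valleys, 49 in introns, 28 between genes, 16 in untranslated exons and 10 in other exons. A tile that touched an exon at all was placed with the exons. Tiles that were not called were not sorted in this way, so these counts show no preference for a class.

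Tiles higher in B cells reached the greater differences. At Lef1, which encodes a Wnt pathway factor of T cell development, the tile 3 kb out (chr3:131115001-131116000, with an exon) was at 95.4% in female B, 0.324% in female T, 96.4% in male B and 0.966% in male T cells (adjusted p = 2e-197), and it holds the Lef1 body window printed above. At Bcl11b, the tile 3 kb out in an intron (chr12:107999001-108000000) was at 71.3%, 1.23%, 71.3% and 0.697% (adjusted p = 1.71e-117). At Zbtb7b, needed for the CD4 lineage, an intronic tile 4 kb out (chr3:89386001-89387000) was at 90.0%, 17.0%, 86.5% and 13.2% (adjusted p = 6.51e-85). In these 3 the B cell files lay far above the T cell files, with no overlap. With 1 tile taken per valley, intronic tiles of Anp32a, Cytip and Smad7 completed the 6 of greatest difference, the first at 85.7%, 12.2%, 89.0% and 11.4% in the same order of files. Cytip's valley had the most called flanking tiles, 6 and all higher in B cells, followed with 5 each by Zbtb7b, by Smad7, an inhibitor of TGF-beta signalling, and by Lef1, where 4 were higher.

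Tiles lower in B cells were smaller in their differences. The greatest was upstream of Lef1, 4 kb out on the other side of the same valley (chr3:131102001-131103000), at 32.65% in female B, 85.7% in female T, 27.5% in male B and 88.3% in male T cells (adjusted p = 1.25e-63). The Lef1 valley thus had flanks of both directions, on opposite sides. Upstream of Elk4, an ETS factor, a tile 3 kb out (chr1:132004001-132005000) was at 32.6%, 81.3%, 29.7% and 73.4% (adjusted p = 4.99e-12). In the first tile beside the valley of Prkd2, a kinase active downstream of antigen receptors, which lies in the neighbouring gene Strn4 (chr7:16840001-16841000), the levels were 40%, 87.0%, 40.8% and 86.5% on 4 CpGs. With 1 tile per valley, the others among the 6 of greatest difference were beside valleys at Zfp516, within Zeb2, and at Zfp91 and Lpxn, where 3 CpGs were at 0.0% in both B cell files and at 43.8% and 57.7% in T cells. Taking the lesser of the differences in the 2 sexes, the maximum was 53.0 points in this direction and 95.1 in the other.

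Between females and males no flanking tile was called, in the model or by limma or Fisher's exact test, where 0.00103% of all tiles were. At an unadjusted p under 0.05 in the model there were 186 of 2539 (7.33%), where 4.74% of all tiles were. Between B and T cells the same cutoff gave 529 (20.8%), where 12.6% of all tiles passed. The share was thus higher in flanking tiles in both comparisons. The median absolute difference between the sexes in the 2539 tiles was 2.05 points, and that between the cell types 2.71.

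Valleys that were chosen on 1 sex were then measured in the other, which the choice had not used. The male files alone gave 316 valleys, and 95.6% of their 2019 measured tiles were at or below 15% in both female files, with the median valley at 4.64% in female B and 4.93% in female T cells. The female files gave 323 valleys, and 95.6% of 2091 tiles were at or below 15% in both male files, with medians of 4.35% and 5.02%. Every tile of the valley was low in the other sex in 240 of the 316 and in 243 of the 323, and the highest tile level met in the other sex was 28.6%.

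Among valleys with no annotated start the widest was the one within Pax6 (chr2:105674001-105684000, 10 kb), 5101 bp from that gene's start, at 4.19% in female B, 5.04% in female T, 4.27% in male B and 5.03% in male T cells. The next were within or beside Cyp26b1, which degrades retinoic acid, Uncx and Fezf2, 8 kb each, and another of 8 kb (chr7:70328001-70336000) overlapped no protein-coding gene and lay 30735 bp from the start of Nr2f2, at 6.68% over the files pooled. The Fezf2 valley (chr14:12340001-12348000), 189 bp from the start of a forebrain zinc finger gene, was at 5.68%, 7.36%, 5.49% and 7.13%. The first 4 were within or beside developmental regulators and lay between 4.44% and 6.43% over the files pooled.

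The 15% limit decided membership finely. The most methylated tile was at 14.99% in the valley of Pax2, 14.97% in that of Pax6 and 14.95% in that of Setd1b. Just outside were runs of 5 tiles in which 1 tile was at 15.08% (chr14:122481001-122486000), at 15.09% (Vax1) and at 15.11% (chr5:119839001-119844000).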

How the data were processed

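Whole-genome bisulfite sequencing was performed by the authors on sorted splenic B and T cells. The submitters' processing notes name Bismark 0.13.1, Trim Galore, FastQC and mm10. The deposited tables give, for each CpG, the methylated fraction and the read count as the authors computed them, with no normalisation. Their product was a whole number of methylated reads at every CpG, within the rounding of the fraction.

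CpGs with 5 or more reads in all 4 files were placed in 1 kb tiles, and a tile's level is its methylated reads over its reads. Genes came from GENCODE M21. Differences were tested by a quasi-binomial model with cell type and sex (numpy 2.4.6, scipy 1.17.1), whose dispersion was estimated with limma 3.58.1 (R 4.3.3) from tiles with at least 5 expected methylated and unmethylated reads in every file. Its prior degrees of freedom came out infinite, so every tile has the same dispersion of 1.306, and small p-values rest on read counts, not on a tile's own spread between files. P-values were adjusted by the Benjamini-Hochberg method over 1950708 tiles and rest on 1 file per group. A call needed an adjusted p under 0.05 and, unless stated, 20 points. The fit was tested on simulated data. Depth was 14.6 to 17.7 reads per CpG, and the level of a called flanking tile had an interval of up to 35.5 points.

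The valleys, gene lists and the dispersion prior were chosen with earlier results of these data known. The named valleys are the 12 widest (some items are not reported here), those of the lymphocyte list, the 6 called flanking tiles of each direction with the greatest difference, taken as the lesser of both sexes and with 1 tile per valley, the 3 nearest the limit on each side, the 4 widest without a start and those with most methylated CpGs. The runs of each file around a valley, the Pax5 valley and the lowest and highest valleys were singled out after their values were seen. The X and Y chromosomes were not used here. Alternatives covered the limit, run length, tile offset, coverage, level, test and each file left out.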

Additional observations from a re-analysis of the deposited data

Results flagged for a closer look

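The 27 valleys named for their width, a lymphocyte factor, the lack of a start or their methylated CpGs were examined. In 8 of them the B minus T difference of the valley's level had opposite signs in females and males, as in 83 of all 280 valleys. Valleys named by their flanking tiles or by the limit were not counted among the 27. Elk4 is one of those, at 1.151 points in females and -0.6065 in males. With 1 file per group the difference between the sexes was not tested. Among the widest valleys this was Nkx2-1, at 0.589 points in females and -1.268 in males. Among the lymphocyte factors it was Bcl11a, at 0.0387 and -0.532, and Id2, at 0.703 and -0.174. The valley overlapping Uncx with no annotated start stood at -0.678 and 0.248. Among those with most methylated CpGs, Grk2 stood at 0.438 and -1.132, the valley within Bbc3 at -0.523 and 0.458, Wnt11 at -0.124 and 0.821, and Patz1 at -0.622 and 0.627. In females the Wilson intervals of B and T cells, which cover counting error only, overlapped at all 8. In males they overlapped at all but Nkx2-1 and Bcl11a.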

How the results depend on the processing

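The number, total length, median width and gene starts of the valleys followed the limit and the run length by construction. At most 10% gave 124 valleys of 704 kb, 98 with a protein-coding start, and at most 20% gave 404 valleys of 2822 kb. Runs of 4 or more tiles gave 635 valleys of 3177 kb with a median of 4 kb and 467 with a start. Runs of 6 or more gave 154 valleys of 1127 kb, 123 with a start. Under the other settings, the shifted tiles included, each of these 4 quantities stayed within 1.5 times its value or, for the median, within 1 SD. Without 1 file the valleys numbered 293 to 308, their length was 1853 to 1978 kb, their median 6 kb, and 214 to 223 held a start. Runs of CpGs with 10 or more reads touched 243 of the 280 valleys. Flanking tiles called between B and T cells numbered 216 (8.51%, against 4.31% of all tiles) at 10 points and 59 (2.32% against 1.08%) with limma on log2 ratios (pseudocount 1). They numbered 76 (2.99% against 1.43%) with a prior from all tiles, 85 (3.35% against 1.55%) with Fisher's exact test, and 101 to 112 without 1 file. What lowered the counts was not tested. Between the sexes 1 tile was called at 10 points (0.0394%, against 0.0113% of all tiles) and 0 under every other setting that kept all 4 files. No paired analysis was possible because each group has 1 file and the labels share no replicate number. Depth limits tiles of few CpGs most.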
